A study of Mus musculus with 12 samples.

Results

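A set of 10 marker genes of the oviduct and of its embryonic source, the Müllerian duct, was followed in DKO172 cells, a mouse line that the labels trace to a tumor of the fallopian tube in a female. The genes are Pax8, Pax2, Wt1, Amhr2, Ovgp1, Foxj1, Krt8, Krt18, Esr1 and Pgr. They were chosen by name as textbook markers, with earlier results of these data known. Every array probe whose RefSeq accession maps to one of these symbols was taken, which gave 14 probes of 55394 and 10 genes of 36945. The question is which of these markers the line shows and whether any of them differs with the DICER1 protein that the cells were given. DICER1, an RNase III enzyme, releases mature miRNAs from their hairpin precursors, and D1709N and G1809R are tumor hotspot substitutions in its RNase IIIb domain.

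RNA was hybridised to 12 one-colour Agilent arrays of the whole genome, in 4 groups of 3. The cells of all groups were transfected with 2 µg of a pLD-hygro-EnVM plasmid, which coded for DICER1 D1709N, DICER1 G1809R, wild-type DICER1 (WT) or, as the control, GFP. All were moved to new plates after 24 h and kept in 300 µg/ml hygromycin for 84 h, so the GFP group carries the plasmid and the selection too. The labels do not spell out the genotype behind the name DKO. A single line is a limit of the model, and it is not stated whether replicates were separate cultures, so p-values speak of the scatter among these samples only, part or all of which may be technical.

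In the embryo, Müllerian duct cells split off from the coelomic lining and form oviduct, uterus and upper vagina. PAX2 and PAX8 are paired-box factors of the duct and of the developing kidney, WT1 is a zinc-finger factor of the coelomic lining and the urogenital ridge, and AMHR2 is the receptor through which anti-Müllerian hormone makes the duct regress in males. In the adult oviduct PAX8 marks secretory cells, OVGP1 is a glycoprotein they secrete, FOXJ1 directs the making of motile cilia, and the oestrogen and progesterone receptors ESR1 and PGR regulate both. KRT8 and KRT18 pair to form the keratin filaments of simple epithelia.

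The promoters of Krt8, Krt18 and Ovgp1 are shown because the first pair moved together across the arrays and Ovgp1 is the secreted product most particular to the oviduct. Each run is 300 bases, 250 before to 50 after the annotated start of the gene, from RefSeq on GRCm38.p6, written along the strand of the gene. Capitals mark GGTCA or its reverse complement TGACC, the core letters of the oestrogen receptor's binding motif, searched on both strands.
Krt8, chr15:102004293-102004592, minus strand: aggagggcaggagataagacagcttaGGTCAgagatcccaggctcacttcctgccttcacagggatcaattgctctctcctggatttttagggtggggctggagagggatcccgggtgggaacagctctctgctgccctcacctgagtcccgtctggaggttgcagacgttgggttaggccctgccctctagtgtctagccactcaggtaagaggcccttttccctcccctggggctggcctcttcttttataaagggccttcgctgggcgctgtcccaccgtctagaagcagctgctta
Krt18, chr15:102027966-102028265, plus strand: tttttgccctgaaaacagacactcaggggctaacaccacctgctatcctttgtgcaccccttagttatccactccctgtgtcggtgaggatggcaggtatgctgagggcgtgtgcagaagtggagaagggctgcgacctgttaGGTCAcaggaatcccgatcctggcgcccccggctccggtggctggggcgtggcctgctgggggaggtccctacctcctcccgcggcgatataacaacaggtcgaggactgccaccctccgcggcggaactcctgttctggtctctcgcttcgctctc
Ovgp1, chr3:105973552-105973851, plus strand: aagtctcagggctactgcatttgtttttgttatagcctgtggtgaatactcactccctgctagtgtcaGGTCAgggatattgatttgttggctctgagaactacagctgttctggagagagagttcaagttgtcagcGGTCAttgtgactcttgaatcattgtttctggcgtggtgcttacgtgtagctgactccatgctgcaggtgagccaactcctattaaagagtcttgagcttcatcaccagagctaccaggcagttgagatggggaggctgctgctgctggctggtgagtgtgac
GGTCA starts 224 bases before the start in Krt8, 107 bases before it in Krt18, and 182 and 113 bases before it in Ovgp1. The 8 genes with a promoter in the table have 11 promoters. Of these 11, 5 hold GGTCA (of Krt8, Krt18, Ovgp1, Amhr2 and Esr1), and 40.5% of all 32851 promoters do. The full palindrome GGTCANNNTGACC was in none of the 11 and in 0.07% of all promoters. These are matches of letters and not evidence of binding.

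Every level below is a log2 signal minus that of the 75th percentile on its own array, so a level above 0 belongs to the brighter probes of an array, and levels are compared between groups and not between genes. A probe was well above background where the scanner's own flag said so. Of the 10 genes, 7 were well above background on all 12 arrays, which is 70%, against 63.9% of the 20600 genes with a RefSeq symbol. These were Wt1, Amhr2, Ovgp1, Krt8, Krt18, Esr1 and Pgr. The others, Pax8, Pax2 and Foxj1, were at or near background on slide 2.

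**Figure D1:**
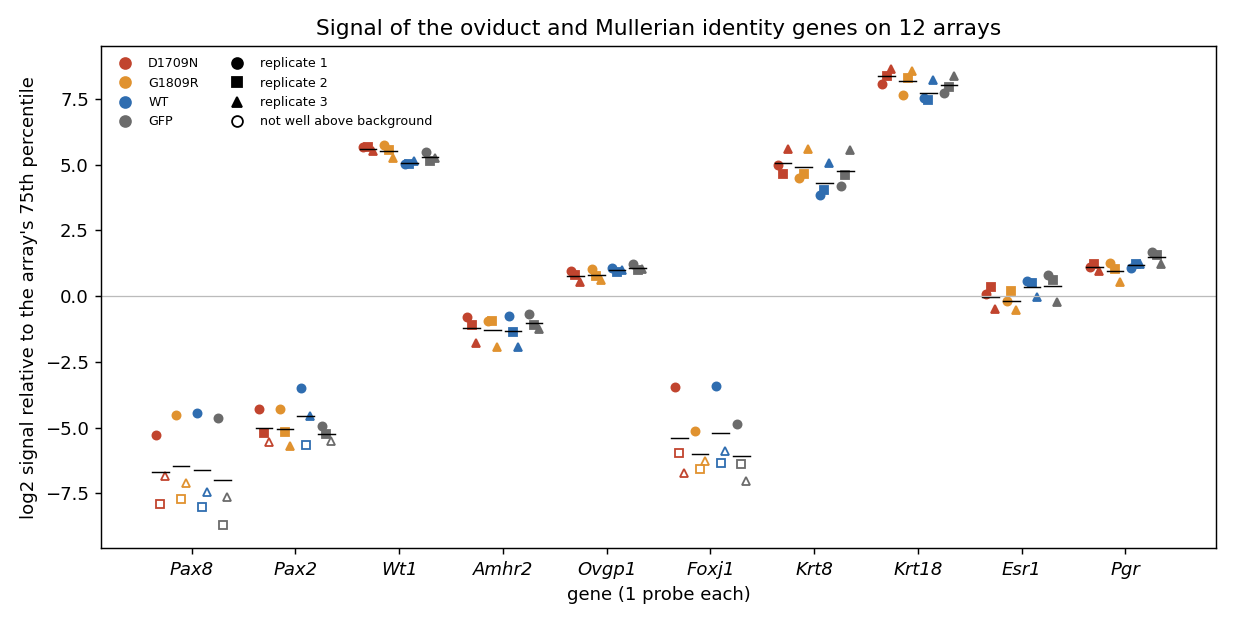
Log2 signal of the 10 genes on each of 12 arrays, set against the array's 75th percentile, with 1 probe a gene. Colours are groups, shapes are replicate numbers, open symbols are arrays on which the probe was not well above background, and short lines are means of 3 arrays. Pax8 and Foxj1 are open on all 8 arrays of slide 2, and Wt1 lies between 5.01 and 5.13 on the 3 WT arrays, below all other arrays.

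Slide 1 held replicate 1 of all 4 groups, and slide 2 held replicates 2 and 3. Between 68.1% and 82.7% of all probes were well above background on the 4 arrays of slide 1, and between 49.5% and 62.7% on the 8 arrays of slide 2. WT replicate 1 had the highest share. The replicate 1 array of each group correlated with the other arrays of its group at 0.977 to 0.984, lowest in WT, and replicates 2 and 3 with each other at 0.989 to 0.993. Over all 55394 probes, dim ones included, the lowest correlation within a group was 0.958, between WT replicates 1 and 3. The array's Dicer1 probe measures the mouse gene, and whether the plasmids hold the probed stretch is not given, so it checks no label. Its level was 0.82 ± 0.18 with D1709N, 0.92 ± 0.24 with G1809R, 0.27 ± 0.23 with WT and 1.13 ± 0.20 with GFP (SD, n = 3 each). In bulk RNA, fewer cells of a type and less RNA per cell cannot be told apart.

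The paired-box genes gave little or no signal. The probe of Pax8 read −5.29, −7.92 and −6.86 on D1709N replicates 1 to 3, −4.54, −7.71 and −7.12 on G1809R, −4.43, −8.01 and −7.44 on WT, and −4.65, −8.72 and −7.63 on GFP. It was well above background on the 4 arrays of slide 1 and on 0 of the 8 of slide 2, in every group alike. The split falls between the slides and equally between replicate 1 and replicates 2 and 3, which cannot be told apart. Pax2 has a pair of probes. The brighter read −4.29, −5.21 and −5.56 on D1709N, −4.30, −5.16 and −5.68 on G1809R, −3.50, −5.66 and −4.56 on WT, and −4.95, −5.24 and −5.51 on GFP. It was well above background on 9 arrays, 3 of G1809R and 2 of each other group. It entered the tests only through the G1809R arrays, and its groups overlap in all 6 comparisons. The dimmer probe was above background on slide 1 only.

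Foxj1 followed the same course as Pax8. Its probe read −3.46, −5.96 and −6.71 on D1709N, −5.13, −6.58 and −6.26 on G1809R, −3.40, −6.33 and −5.88 on WT, and −4.85, −6.38 and −7.04 on GFP. Only the 4 arrays of slide 1 were well above background, and no group stood apart from another. Pax8 and Foxj1 therefore entered no test, and 8 of the 10 genes did.

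Wt1 was well above background on all 12 arrays. Its level was 5.66, 5.68 and 5.51 with D1709N, 5.76, 5.56 and 5.24 with G1809R, 5.04, 5.01 and 5.13 with WT, and 5.49, 5.15 and 5.27 with GFP. The WT arrays lay below all arrays of the other 3 groups, and the D1709N arrays lay above all arrays of WT and GFP. The log2 difference from WT was 0.55 ± 0.15 with D1709N (SE, limma adjusted p = 0.104) and 0.46 ± 0.15 with G1809R (limma adjusted p = 0.195), and 3 of 3 same-numbered pairs were higher for both. With the replicate number as a block, which takes same-numbered arrays as pairs, both passed the threshold (limma adjusted p = 0.0185 for D1709N and 0.0398 for G1809R). These blocked calls rest on single arrays. For D1709N the adjusted p was 0.0656 without WT replicate 1, 0.0624 without WT replicate 2, 0.0839 without D1709N replicate 2 and 0.0603 without D1709N replicate 3. For G1809R the call was lost in 9 of 12 such fits. Against GFP, Wt1 was 0.31 ± 0.15 with D1709N, 0.21 ± 0.15 with G1809R and −0.25 ± 0.15 with WT, none of them called with or without the block.

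Amhr2 was measured on all arrays too. It read −0.79, −1.08 and −1.77 with D1709N, −0.94, −0.96 and −1.93 with G1809R, −0.74, −1.36 and −1.93 with WT, and −0.68, −1.10 and −1.26 with GFP. The replicate 3 array was the lowest of each group, and all groups overlap. The largest of its 6 differences was −0.33 ± 0.38 for WT against GFP (95% interval −1.17 to 0.52, limma adjusted p = 0.856), and no comparison was called with the block either.

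Ovgp1 varied least of the genes on every array, over a range of 0.69. It read 0.96, 0.80 and 0.53 with D1709N, 1.04, 0.75 and 0.60 with G1809R, 1.06, 0.93 and 1.01 with WT, and 1.22, 1.00 and 1.03 with GFP. The D1709N arrays lay below all GFP arrays and the other comparisons overlap. The difference from GFP was −0.32 ± 0.15 with D1709N (limma adjusted p = 0.709, 0.0984 with the block), −0.29 ± 0.15 with G1809R (limma adjusted p = 0.854, 0.134 with the block) and −0.09 ± 0.15 with WT, each lower in 3 of 3 pairs. None passed the threshold.

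The simple-epithelial keratins were measured on all 12 arrays, and WT was the lowest of the 4 groups at every replicate number. Krt8 read 4.97, 4.65 and 5.59 with D1709N, 4.48, 4.63 and 5.59 with G1809R, 3.85, 4.05 and 5.05 with WT, and 4.19, 4.60 and 5.55 with GFP. Krt18 read 8.07, 8.36 and 8.65 with D1709N, 7.66, 8.29 and 8.56 with G1809R, 7.52, 7.45 and 8.21 with WT, and 7.74, 7.94 and 8.38 with GFP. The ranges of the groups overlap, and the replicate 3 array was the highest of each group for both genes. Within a replicate number, Krt8 with D1709N exceeded WT by 1.12, 0.61 and 0.55, and with G1809R by 0.63, 0.59 and 0.54. Krt18 with D1709N exceeded WT by 0.55, 0.91 and 0.43, and with G1809R by 0.14, 0.83 and 0.35.

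The tests of the keratins depend on whether that pairing is used. Without it, Krt8 differed from WT by 0.76 ± 0.46 with D1709N (limma adjusted p = 0.548) and 0.59 ± 0.46 with G1809R (limma adjusted p = 0.766). Krt18 differed from WT by 0.63 ± 0.29 with D1709N (limma adjusted p = 0.382) and 0.44 ± 0.29 with G1809R (limma adjusted p = 0.675). With the replicate block, Krt8 was higher with D1709N (SE 0.14, limma adjusted p = 0.00952) and with G1809R (limma adjusted p = 0.0273), and Krt18 with D1709N (SE 0.13, limma adjusted p = 0.0132), while Krt18 with G1809R stayed outside (limma adjusted p = 0.0544). The blocked call of Krt8 with D1709N held in all 12 fits that leave out an array. That of Krt18 with D1709N was lost without D1709N replicate 2 (adjusted p = 0.0628), and that of Krt8 with G1809R was lost without any one of the 6 WT or G1809R arrays (adjusted p 0.0557 to 0.0943). Against GFP no keratin difference was called, and Krt8 with WT lay at −0.46 ± 0.46 (limma adjusted p = 0.796, 0.051 with the block).

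**Figure D2:**
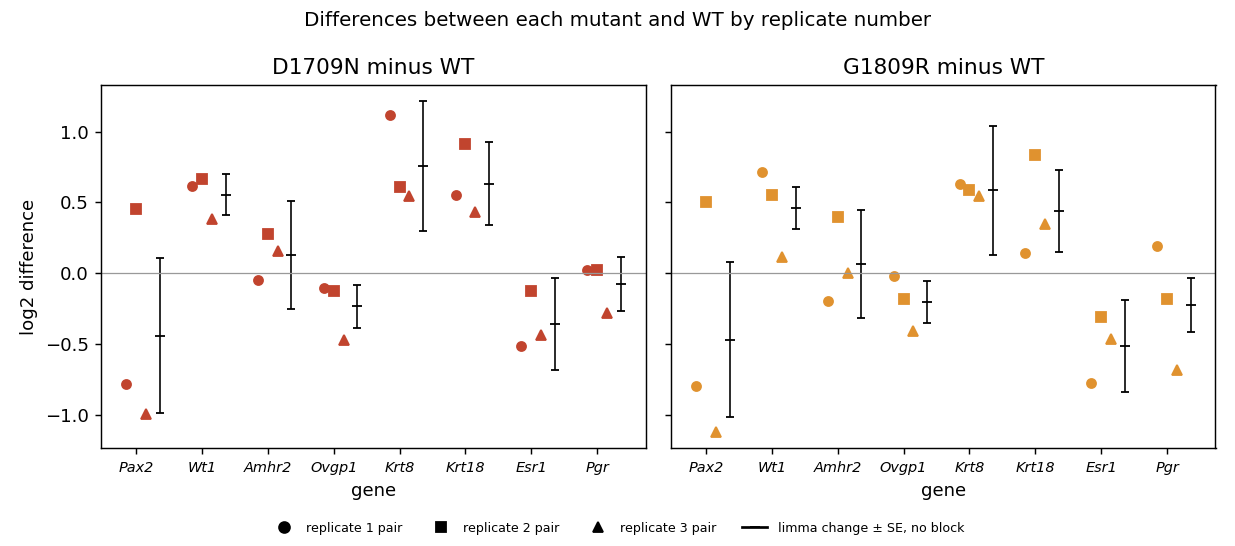
Log2 difference between each mutant and the WT array of the same replicate number for the 8 tested genes, D1709N on the left and G1809R on the right. Shapes are the 3 replicate pairs, and the bar beside them is the limma change with its SE from the fit without the block. Krt8, Krt18 and Wt1 lie above 0 and Esr1 and Ovgp1 below 0 in all 3 pairs of both mutants, while Pax2, Pgr and Amhr2 have pairs on both sides.

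Krt8 and Krt18 lie on chromosome 15 with 2 annotated genes between them, and their levels ran together over the 12 arrays (r = 0.896, rho = 0.930, and r = 0.869 after the group means were removed). Esr1 ran the other way to Krt8 (r = −0.851, rho = −0.811, and −0.930 after the group means were removed). These correlations are descriptions, since the arrays share slides, replicate numbers and groups. Krt8 and Krt18 were highest and Esr1 and Amhr2 lowest on replicate 3 in 4 of 4 groups. Those arrays had 49.5% of probes well above background with D1709N, 61.9% with G1809R, 54.4% with WT and 55.1% with GFP, against 57.7%, 62.5%, 58.8% and 62.7% on replicate 2 in the same order of groups. The part of signal quality in these patterns was not tested.

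**Figure D3:**
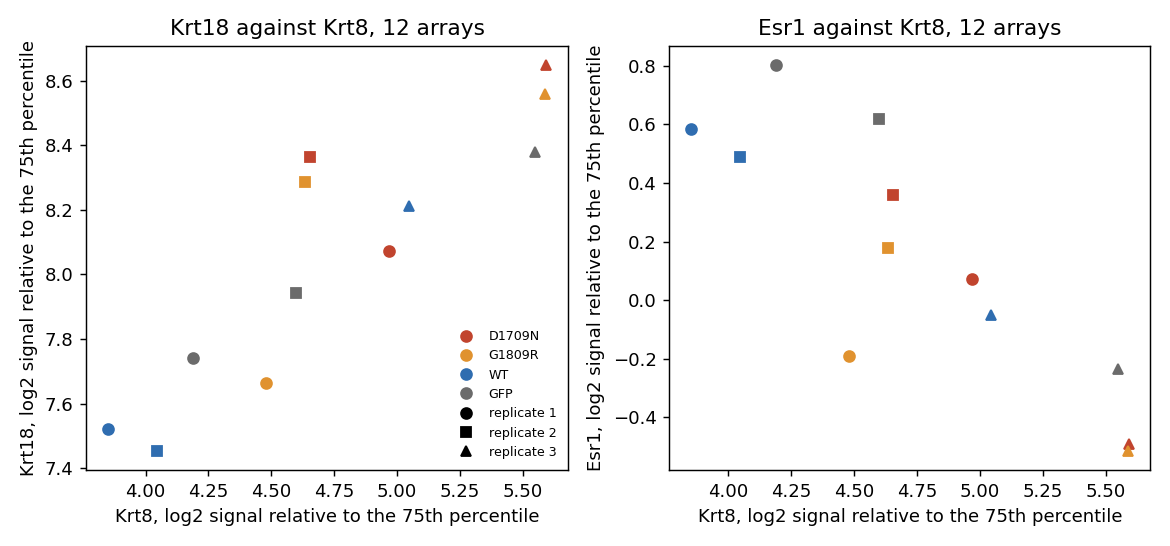
Levels of Krt18 (left) and Esr1 (right) against Krt8 on the 12 arrays, as log2 signal relative to the 75th percentile. Colours are groups and shapes replicate numbers. The replicate 3 arrays sit at the right of both panels, with r = 0.896 for Krt18 and −0.851 for Esr1.

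Esr1, the oestrogen receptor α gene, has 3 probes, and the differences between groups were not the same on them. The brightest, A_52_P237077, stands for the gene and read 0.07, 0.36 and −0.49 with D1709N, −0.19, 0.18 and −0.51 with G1809R, 0.59, 0.49 and −0.05 with WT, and 0.80, 0.62 and −0.23 with GFP. Its groups overlap, although both mutants were below WT and GFP in 3 of 3 pairs. The difference from WT was −0.52 ± 0.32 with G1809R (limma adjusted p = 0.644, 0.041 with the block) and −0.36 ± 0.32 with D1709N (limma adjusted p = 0.752, 0.109 with the block). The blocked call with G1809R was lost in 10 of 12 fits that leave out an array, WT, G1809R, D1709N and GFP arrays among them (adjusted p up to 0.149).

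The middle Esr1 probe, A_55_P2030883, set GFP apart from all 3 DICER1 groups. It read −1.25, −1.57 and −1.61 with D1709N, −1.35, −1.44 and −1.59 with G1809R, −1.16, −1.49 and −1.60 with WT, and −0.93, −0.74 and −1.07 with GFP. Every array with a DICER1 plasmid was below every GFP array. With each probe tested on its own over 33023 probes, the difference from GFP was −0.56 ± 0.16 with D1709N, −0.54 ± 0.16 with G1809R and −0.50 ± 0.16 with WT, and these were not called without the block (limma adjusted p = 0.439, 0.548 and 0.153), where 0.0273%, 0.00303% and 2.3% of all probes were called. With the block they were (limma adjusted p = 0.0355, 0.041 and 0.0167), where 3.43%, 2.77% and 15.8% of all probes were. Without 1 array the blocked call held in 4, 1 and 8 of 12 fits in the same order.

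The dimmest Esr1 probe, A_51_P474658, set D1709N apart from WT instead. It read −4.67, −4.96 and −6.08 with D1709N, −4.42, −4.84 and −4.94 with G1809R, −3.77, −3.72 and −4.64 with WT, and −3.88, −3.47 and −4.30 with GFP, and D1709N replicate 3 was not well above background. The D1709N arrays lay below all WT and GFP arrays, and the G1809R arrays lay below all GFP arrays. The difference from WT was −1.19 ± 0.39 with D1709N (limma adjusted p = 0.203, 0.0107 with the block), where 1.28% of all probes were called without the block and 13.8% with it, and the blocked call held in all 12 fits that leave out an array. From GFP it was −1.35 ± 0.39 (limma adjusted p = 0.442, 0.0215 with the block), a call lost without replicate 2 or 3 of either group. G1809R differed from WT by −0.69 ± 0.39 and was not called (limma adjusted p = 0.602, 0.0809 with the block). Its difference from GFP, −0.85 ± 0.39, was not called either (limma adjusted p = 0.816, 0.0782 with the block).

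Pgr, the progesterone receptor gene and a known oestrogen-induced gene of the reproductive tract, has a pair of probes that also differed. The brighter, A_55_P2095663, read 1.10, 1.24 and 0.96 with D1709N, 1.27, 1.04 and 0.55 with G1809R, 1.08, 1.22 and 1.23 with WT, and 1.69, 1.55 and 1.23 with GFP. The groups overlap, and the GFP arrays hold the highest values. The difference from GFP was −0.54 ± 0.19 with G1809R (unadjusted p = 0.0182, limma adjusted p = 0.603, 0.0839 with the block), −0.39 ± 0.19 with D1709N (limma adjusted p = 0.731) and −0.31 ± 0.19 with WT (limma adjusted p = 0.528), so none was called.

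The dimmer Pgr probe, A_51_P213476, separated both mutants from WT and GFP. It read −1.36, −1.27 and −1.46 with D1709N, −1.48, −1.61 and −1.67 with G1809R, −1.12, −0.76 and −0.96 with WT, and −0.90, −0.85 and −0.97 with GFP. Every mutant array was below every WT and GFP array, and every G1809R array below every D1709N array. With each probe tested on its own, its signal fell with G1809R against WT (log2 change −0.64 ± 0.12, limma adjusted p = 0.038), where 1.21% of all probes were called. It was the only probe of the 10 genes that passed without the block. Without 1 array that call was lost in all 12 fits, while the call with the block (limma adjusted p = 0.00628) held in all 12. With the block 10.6% of all probes were called in that comparison. With the block the dimmer probe was also called for D1709N against WT (−0.41 ± 0.12, limma adjusted p = 0.0287), G1809R against GFP (−0.68 ± 0.12, 0.0193) and D1709N against GFP (−0.45 ± 0.12, 0.0472). In the same order, 13.8%, 2.77% and 3.43% of all probes were called with the block. These calls of the dimmer probe held in 7, 6 and 1 of 12 fits without an array. The brighter probe differed between G1809R and WT by −0.22 ± 0.19 (limma adjusted p = 0.835 over all probes), so the probes disagree on whether Pgr differed. Which transcripts each probe reads was not analysed here.

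**Figure D4:**
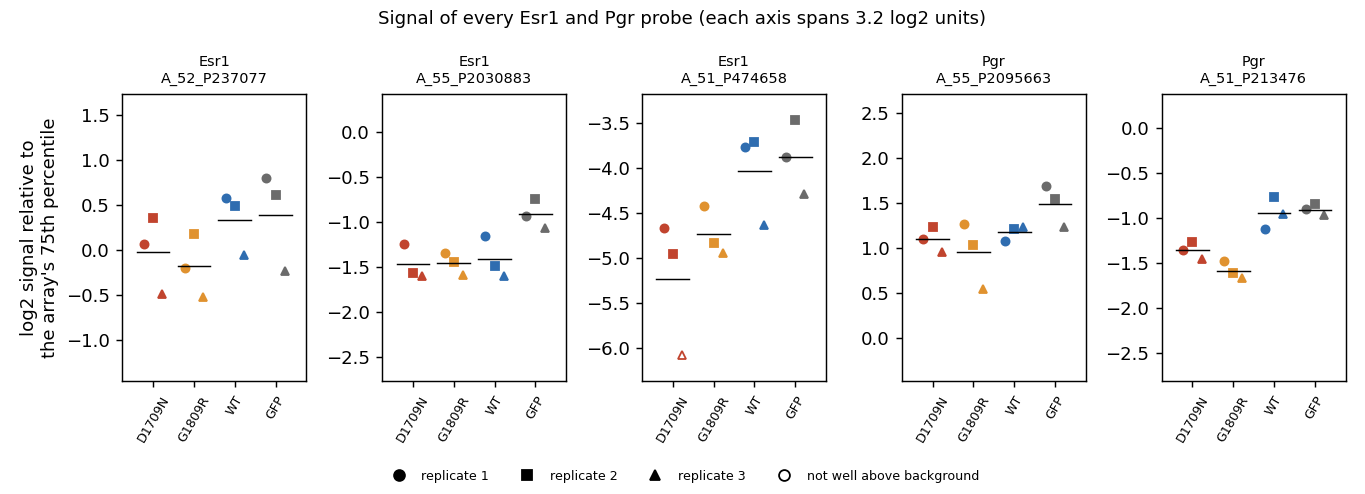
Log2 signal of the 3 Esr1 and 2 Pgr probes on each array, set against the array's 75th percentile, in separate panels whose axes all span the same height. Colours are groups, shapes replicate numbers, short lines means of 3 arrays, and the open symbol is not well above background. The Pgr probe on the right has all mutant arrays at or below −1.27 and all WT and GFP arrays at or above −1.12.

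Counted over the genes, limma without the block called 0 of the 8 tested genes in each of the 6 comparisons, at an adjusted p under 0.05 over 24183 genes. Of all genes it called 1.66% for D1709N against WT, 1.64% for G1809R against WT, 0.0496% for D1709N against GFP, 0.0124% for G1809R against GFP, 2.95% for WT against GFP and 0% for D1709N against G1809R. At an unadjusted p under 0.05, 1 of 8 passed for each mutant against WT (Wt1 both times), 1 for G1809R against GFP (Pgr) and 0 in the other 3. Of all genes 13.7% passed that limit for D1709N and 12.2% for G1809R against WT, and 6.64% for G1809R against GFP. With the replicate block 3 of 8 were called for D1709N against WT, all higher (Wt1, Krt8 and Krt18), where 15.5% of all genes were called and 7.12% were called higher. For G1809R against WT 3 of 8 were called, Wt1 and Krt8 higher and Esr1 lower, where 12.7% of all genes were called, 6.36% higher and 6.31% lower. No member was called against GFP with the block, where 4.25% (D1709N), 3.74% (G1809R) and 17.8% (WT) of all genes were.

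The arrays of the groups did not overlap for 1 of 8 genes for D1709N against WT, where 17.6% of all genes did not, and for 1 of 8 for G1809R against WT, where 14.6% did not, in both cases Wt1. They did not overlap for Wt1 and Ovgp1 for D1709N against GFP (13.6% of all genes) and for Wt1 for WT against GFP (19.9%). For G1809R against GFP and for D1709N against G1809R the arrays overlapped for all 8 genes, where 11.1% and 2.46% of all genes did not overlap. The median log2 difference of the 8 genes was 0.02 for D1709N and −0.07 for G1809R against WT, 0.01 for D1709N, −0.07 for G1809R and −0.27 for WT against GFP. Over all genes the same medians were −0.01, 0.01, 0.03, 0.05 and 0.04. The comparisons share their WT or GFP arrays.

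Between the mutants no difference was detected on the probes that stand for the tested genes. There the difference of D1709N from G1809R ran from −0.03 for Ovgp1 to 0.19 for Krt18, and limma called none with or without the block. On the dimmer Pgr probe the difference was 0.23, with arrays that did not overlap. It was −0.50 on the dimmest and −0.01 on the middle Esr1 probe. None of these was called with or without the block. The intervals are wide: 95% limits were −0.46 to 0.84 for Krt18, −0.85 to 1.19 for Krt8 and −0.23 to 0.42 for Wt1.

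Genes around the members were taken from lists of known markers. Of 19 Müllerian duct genes 8 were well above background on all arrays (42.1%), among them Emx2, a homeobox gene needed for the urogenital tract. The duct's Lhx1 was measured on 11 arrays, and Hoxa11, Dach1 and Dach2 on none. Of 19 oviduct and uterine epithelial genes 7 were (36.8%), and Sox17 and Lgr5 were well above background on 0 arrays. Of 20 genes of motile cilia 11 were (55%), including Rfx3, a factor that works with FOXJ1, and of 19 kidney and nephric duct genes 7 were (36.8%). The keratin and simple-epithelium list stood at 18 of 25 (72%), with Krt19 and Krt7 on all arrays, Epcam on 11 and Cdh1 on 10. Mesothelial genes, which like Wt1 belong to the coelomic lining, stood at 9 of 11 (81.8%) and steroid receptors and coregulators at 18 of 20 (90%), with Esr2 on all arrays. Lists of other cell types stood at 13 of 20 for mesenchyme (65%), 16 of 23 for granulosa, Sertoli and steroidogenic cells (69.6%), 5 of 11 for leukocytes (45.5%), 5 of 10 for smooth muscle (50%) and 3 of 12 for endothelium (25%).

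**Figure D5:**
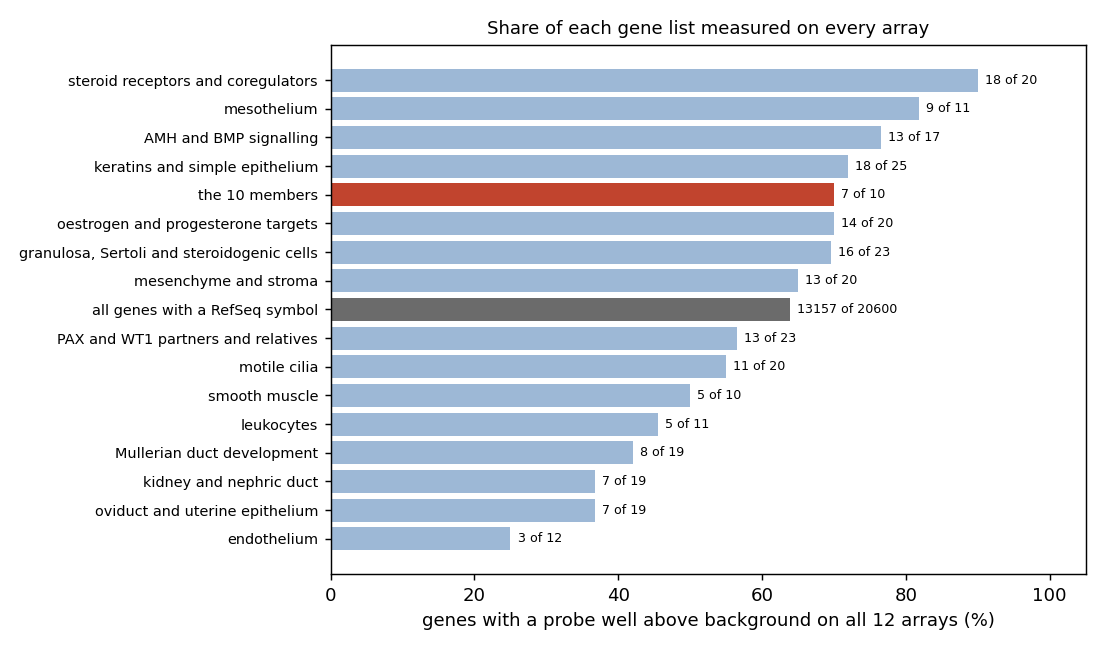
Share of the genes of each list that were well above background on all 12 arrays, in percent, with the number of genes beside each bar. The red bar is the 10 oviduct and Müllerian genes (7 of 10) and the grey bar all genes with a RefSeq symbol (63.9%). The oviduct and uterine epithelium, kidney and Müllerian duct lists lie below that share, and mesothelium and steroid receptors above it.

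Some mesothelial genes lay higher in the mutants than in WT. Of the 9 tested, limma without the block called 2 higher and 0 lower with D1709N against WT and 1 higher with G1809R, where 1.66% and 1.64% of all genes were called. With the block 4 were called higher and 0 lower with each mutant (Lrrn4, Bnc1, Upk3b and Upk1b), where 7.12% and 6.36% of all genes were called higher. The median log2 difference of the 9 genes from WT was 0.54 with D1709N and 0.36 with G1809R, against −0.01 and 0.01 over all genes. Against GFP none of the 9 was called without the block. With it 4 were higher and 0 lower with D1709N, where 1.77% of all genes were called higher. With G1809R 3 were higher and 0 lower, where 1.75% of all genes were higher. WT against GFP had 2 higher and 3 lower, where 9.18% and 8.61% of all genes were. Lrrn4, a membrane protein gene of mesothelium, was higher by 1.82 ± 0.34 with D1709N (limma adjusted p = 0.0328) and 1.68 ± 0.34 with G1809R (limma adjusted p = 0.044), and Bnc1, a zinc-finger factor gene, by 0.76 ± 0.13 with D1709N (limma adjusted p = 0.0205). Without WT replicate 1 the adjusted p was 0.113 and 0.146 for Lrrn4 and 0.074 for Bnc1, and other single arrays of these groups ended the calls too. With the block all 3 were called (limma adjusted p = 0.00442, 0.00639 and 0.00288). Both genes were also lower with WT than with GFP. Lrrn4 stood at −1.34 there, called without the block only among probes above background on all 12 arrays (limma adjusted p = 0.0492). With the block both genes were called lower with WT than with GFP. Without GFP replicate 3 these blocked calls were lost (limma adjusted p = 0.0516 for Lrrn4 and 0.0678 for Bnc1). The mean level of the 9 genes ranged over 2.63 to 2.68 on D1709N arrays, 2.49 to 2.55 on G1809R arrays, 1.78 to 2.41 on WT arrays and 2.10 to 2.51 on GFP arrays. Msln, the gene of the surface protein mesothelin, was measured in all groups, at 6.18 with D1709N, 6.08 with G1809R, 5.95 with WT and 5.46 with GFP. Its differences from WT, 0.23 with D1709N and 0.13 with G1809R, were not called and came to −0.01 and −0.11 without WT replicate 1. Calb2 and Efemp1, further genes of that list, were measured on 2 arrays at most. The part of these genes in the difference of Wt1 was not tested.

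Other keratins did not all follow Krt8 and Krt18. In the keratin and simple-epithelium list limma called 0 of 21 tested genes in any comparison without the block. With it 1 was higher and 1 lower with each mutant against WT. Of all genes 7.12% were called higher and 8.42% lower there with D1709N, and 6.36% and 6.31% with G1809R. Krt7, another keratin gene of oviduct epithelium, was at 0.91 ± 0.38 with D1709N against WT (limma adjusted p = 0.32, 0.021 with the block) and 0.69 ± 0.38 with G1809R (0.546, 0.0599 with the block). Krt19 was at 0.09 ± 0.24 and 0.04 ± 0.24 against WT, which changed sign under quantile normalization, and higher than GFP by 0.50 to 0.59 in the DICER1 groups, called only with the block. Vim, the mesenchymal filament gene, shared the low WT level of Krt8 and Krt18. Its level was 5.41 ± 0.43 for D1709N, 5.41 ± 0.47 for G1809R, 4.76 ± 0.35 for WT and 5.53 ± 0.45 for GFP. It differed from WT in both mutants with the block only (limma adjusted p = 0.00233 and 0.00227). Of the 16 tested genes of the mesenchyme list, the block called 5 higher and 5 lower with each mutant against WT.

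Around the hormone and AMH receptors, limma called 0 of 19 steroid receptor and coregulator genes and 0 of 16 oestrogen and progesterone target genes without the block. With the block, each mutant against WT had 2 of the 19 higher and 1 lower, and 3 of the 16 lower. G1809R also had 1 of the 16 higher. Of all genes 7.12% were called higher and 8.42% lower there with D1709N, and 6.36% and 6.31% with G1809R. Greb1, an oestrogen-induced gene, differed from WT by −0.46 ± 0.22 with G1809R (limma adjusted p = 0.434, 0.0146 with the block) and by −0.20 ± 0.22 with D1709N. Of the 15 tested genes of AMH and BMP signalling, 3 were higher and 3 lower with each mutant against WT with the block. With WT against GFP 3 were higher and 4 lower, where 9.18% and 8.61% of all genes were. Only Acvr2b, an activin type 2 receptor, was called without the block. It was higher than WT by 1.13 ± 0.14 with D1709N (limma adjusted p = 0.00657) and by 0.93 ± 0.14 with G1809R (0.0137), and with WT it fell by 1.17 against GFP (0.0039). The call with G1809R was lost without WT replicate 2 (0.0542), G1809R replicate 2 (0.0605) or G1809R replicate 3 (0.0545). Amh itself, the ligand of AMHR2, was well above background on 1 array.

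In the oviduct and uterine list limma with the block called 2 of 12 genes higher and 3 lower with D1709N against WT. With G1809R it called 1 higher and 2 lower. Of all genes 7.12% were called higher and 8.42% lower there with D1709N, and 6.36% and 6.31% with G1809R. Without the block limma called 1 of the 12 genes, Fut4, a fucosyltransferase gene. It fell with D1709N and G1809R against WT (−1.55 ± 0.14 and −1.07 ± 0.14, limma adjusted p = 0.00189 and 0.00912) and against GFP (−1.71 and −1.23, 0.00289 and 0.0393). These calls rest on its chosen probe: with the mean of its probes the adjusted p was 0.171, 0.507, 0.594 and 1 in the same order, and the last was also lost without most single arrays (0.268 without GFP replicate 3). Of the relatives and partners of PAX and WT1, Six4, a homeobox gene, was lower than GFP with D1709N (−1.20 ± 0.14, limma adjusted p = 0.0241) and WT (−0.67 ± 0.14, 0.0343). Nab1, a corepressor of EGR factors, was lower with WT than with GFP (−0.60 ± 0.13, 0.0433) and higher with D1709N than with WT (0.66 ± 0.13, 0.0406). Single arrays ended each of these 4 calls, with an adjusted p of 0.178 for Six4 with D1709N without GFP replicate 2 and 0.122 with WT without GFP replicate 1, and for Nab1 of 0.149 without GFP replicate 3 and 0.161 without D1709N replicate 2. None of the 9 tested Müllerian duct genes, the 13 genes of motile cilia and the 10 kidney genes was called without the block. With it, 3 Müllerian duct genes were lower with D1709N than with WT and 2 with G1809R, where 8.42% and 6.31% of all genes were. Wnt4, a secreted signal needed for the duct, differed by −0.73 and −0.55 (limma adjusted p = 0.00425 and 0.0141) and Emx2 by −0.42 and −0.38 (0.0176 and 0.0268). Gata3, a zinc-finger factor gene, differed by −0.72 with D1709N (0.0312). Against GFP the block called 1 Müllerian duct gene lower with each mutant, where 2.49% (D1709N) and 1.98% (G1809R) of all genes were. It called 2 higher with WT against GFP, where 9.18% of all genes were.

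Over the 12 arrays, the tested genes with a symbol whose level ran most like each member were, among others, Man2a1 and Rbks for Wt1 (r = 0.977 and 0.967), Ddx31, Bbof1 and Hoxa7 for Amhr2 (0.963 to 0.967), and Glul, Adam32 and Epb41l4b for Ovgp1 (0.927 to 0.950). For Krt8 they were Dusp9, Tubb4a and Bicd2 (0.946 to 0.960) and for Krt18 Ostf1, Bcl2l15 and Zbtb9 (0.942 to 0.951). For Esr1 they were Slc27a3, Arap2 and Plcb4 (0.946 to 0.975) and for Pgr Gaa, Pfn2 and Mapk8ip3 (0.908 to 0.926). Each is among the 3 highest of 14064 genes compared, and the arrays share slide, replicate number and group.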

How the data were processed

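Total RNA of DKO172 cells was read on 12 single-colour Agilent arrays. The deposited scanner files hold each spot's processed intensity (Cy3, background-subtracted, Feature Extraction 11.0.1.1 per the submitters' processing notes) and, per the file headers, flags for controls, outliers and signal well above background. The authors also deposited a log2 value table, of unstated scaling. It served as an alternative.

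Intensity was divided by the 75th percentile of each array and taken to log2. Control spots and outlier flags were left out, spots of a probe were averaged, and a probe was tested where it was well above background on all 3 arrays of at least 1 group. The brightest passing probe stood for its gene. Symbols came from RefSeq accessions (GRCm38.p6), and the array's own annotation is on mm9. Groups were compared with limma 3.58.1 (lmFit and eBayes, all 12 arrays in 1 fit, two-sided, Benjamini-Hochberg over 24183 genes, threshold 0.05). The fit without a block was tried on simulated data whose noise was independent between arrays. The fit with the block was not tried on simulated data. Same-numbered arrays deviated together from their group means (correlations 0.601 to 0.853 for every pair and comparison), and the replicate number was taken to pair them. The blocked value stands beside a result where it changes the call. The number coincides in part with the slide, since replicate 1 was on slide 1 and replicates 2 and 3 on slide 2. A difference between slides alone would also give such correlations. No correlation of differently numbered arrays was set beside them, so they cannot show that replicates 2 and 3 pair.

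The files hold no mean signal, so the normexp alternative used the median signal. The members and gene lists were chosen with earlier results of these data known. Beside the members, the text names at most 4 genes of a list by size of change among those called, and genes chosen as partners. Lhx1, Vim, Krt7, Emx2, Wnt4, Gata3, Upk3b, Upk1b, Calb2 and Efemp1 and single alternatives were singled out after their values were seen. A gene like Wt1 in pattern is not reported here. The number of arrays limits the precision.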

Additional observations from a re-analysis of the deposited data

How the results depend on the processing

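The main values are limma calls over all genes: 713 for WT against GFP, 12 for D1709N and 3 for G1809R against GFP, 402 for D1709N and 397 for G1809R against WT. In the same order of comparisons they were 25, 3, 1, 3 and 6 with median centring, 206, 2, 1, 55 and 68 without a filter on dim probes, and 2112, 97, 63, 1407 and 1206 with the slide as a block. They were 4300, 1028, 904, 3760 and 3065 with the replicate block, 3, 0, 1, 0 and 0 with only the 2 groups in the fit, and 3, 1, 1, 3 and 11 on slide 2 alone. D1709N against GFP gave 7 with normexp and 3 with the mean of a gene's probes, where G1809R against GFP gave 1. Leaving out 1 array gave 146 to 601, 2 to 8, 1 to 2, 41 to 307 and 70 to 314, and 0 for D1709N against G1809R. The causes were not tested. Median centring turned the split of higher and lower calls to 2 and 4 for G1809R against WT, where the main values were 251 and 146, and to 2 and 1 for D1709N against GFP, where they were 2 and 10, and it moved the median of all genes to 0.216 and 0.248 for D1709N and G1809R against WT.

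Of the 8 tested genes, 0 were called under every alternative without a block, and of the 10 genes 7 were well above background on all arrays of slide 2 alone and without WT replicate 1, and 8 where a signal of at least 2 times the local background was asked for. The slide block called 1 for D1709N against WT (Wt1), and the replicate block 3 for D1709N and 3 for G1809R against WT; it changed no other call of these genes. With the block kept and 1 array left out, the counts ran from 1 to 3 and 0 to 2, from 0 to 1 for WT and for G1809R against GFP, and stayed at 0 for D1709N against GFP and against G1809R. Of 1092 values of these genes under the alternatives, 1052 kept their sign and 40 did not, none of them called. Median centring put Pgr at 0.14 with D1709N and 0.02 with G1809R against WT, and Ovgp1 at 0.04 with G1809R. Signal over background limits Pax8 and Foxj1, which entered no test, and Pax2, which was measured on 9 arrays.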

Other observations

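Smooth muscle genes were not called without a block, but with the replicate block 6 of the 8 tested were lower with D1709N than with WT and 6 of 8 lower with G1809R than with WT, at median log2 differences of −0.93 and −1.15. Of all genes 8.42% and 6.31% were called lower there, and the all-gene medians were −0.01 and 0.01. Against GFP the block called 3 of the 8 higher and 0 lower with WT, at a median of 0.79, where 9.18% of all genes were higher. With each mutant it called 2 lower and 0 higher against GFP, at medians of −0.41 (D1709N) and −0.56 (G1809R). Of all genes 2.49% and 1.98% were lower there. Of the 16 tested genes of mesenchyme and stroma, limma without the block called only Pdgfra and Pdgfrb. Pdgfra was lower with WT than with GFP (−0.91, limma adjusted p = 0.0074), where 2.95% of all genes were called. Pdgfrb was lower with D1709N than with WT (−1.11, limma adjusted p = 0.0341), where 1.66% were. Both genes code for receptors of platelet-derived growth factor. With the block 5 of the 16 were called higher and 5 lower with each mutant against WT. Of all genes 7.12% were called higher and 8.42% lower there with D1709N, and 6.36% and 6.31% with G1809R. Among 11 leukocyte genes with a probe 5 were well above background on all arrays, and Cdh5, Emcn, Tie1 and Erg of the endothelial list were on none.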
